A study of Mus musculus with 3 samples.

Results

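The genes described here encode the proteins of the cytosolic ribosome. Members were taken by symbol: names made of Rpl or Rps and a number, with an optional a, l, x or y and a further digit, together with Rplp0, Rplp1, Rplp2 and Rpsa, without the Rps6k kinases. Of the 25906 genes in the count matrices, 83 had such a name and 82 had at least 1 count in the cells kept, out of 19496 genes with a count. Of these 82 genes, 80 reached 50 CPM (a gene's counts scaled to a common total) in a group, the minimum used for ratios; the other two, Rpl39l and Rpl3l, are described by their counts below. The name rule also takes in paralogs that are close copies of a subunit gene, and leaves out some genes whose products sit in the same particle, of which Fau and Rack1 are given beside the members.

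The study asked how natural killer (NK) cells of lung and blood differ at steady state, early after tumor cells reach the lung and once metastases have grown. NK cells were sorted from 9-week-old female wild-type mice that were either naive or had received 100000 PyMT cells, a mouse mammary tumor line, intravenously 6 h or 14 days before they were sacrificed (the number of cells per the labels; a legend of the study gives a larger one for 14 days). Lung and blood cells of a time point carried different hashtag antibodies and were pooled in 1 droplet library of RNA 3′ ends, which gave 3 libraries and 6 groups, with 5 mice per group whose cells cannot be told apart in the files. All groups were sorted as live NK1.1+NKp46+ cells after red cell lysis, the lung cells after enzymatic digestion of the perfused organ as well.

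Each group was therefore 1 sample, and no comparison below has a replicate or a test. Intervals are exact 95% intervals for counting error only, conditional on the summed counts of both groups. The library and the time after injection cannot be told apart in any comparison between times, whereas lung and blood of a time point shared their library. The groups held 3676, 4680 and 3575 lung cells and 4367, 2746 and 2069 blood cells (naive, 6 h and 14 days), with summed counts of 16936897 to 35922737 unique molecular identifiers (UMIs, counted RNA molecules) and medians of 5909.5 to 7524 UMIs per cell. Between 7 and 16 cell barcodes were shared by each pair of libraries. The 8 NK cell markers were high in every group, at 15534 to 22992 CPM in sum, and lowest in the lung at 14 days. In that library 7 of the 8 had a log2 ratio of lung over blood of at most -0.25 (median -0.52), where 21.9% of all genes had.

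The cytosolic ribosome is built of a small subunit, which reads the mRNA, and a large subunit, which joins amino acids. Most subunit proteins are needed in about equal number. The mRNAs of these proteins are short, abundant and long-lived, and many start with a C followed by a run of pyrimidines, the 5′ terminal oligopyrimidine (TOP) tract, through which the mTOR kinase pathway and the RNA-binding protein Larp1 adjust their translation. Lymphocytes are known to raise ribosome production when they leave rest, and resting NK cells are known to hold many mRNAs, including those of cytotoxic proteins, that are translated only after stimulation.

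To show what the start of these transcripts looks like, the windows from 10 bases before to 20 bases from the annotated start are given for 5 genes with the smallest and 5 with the largest ratio of 14 days over naive in the lung, among those with a promoter entry in RefSeq (GRCm38.p6). They are written 5′ to 3′ on the strand of the gene, and capitals mark a C and the run of pyrimidines after it, of at least 6 bases in all and starting within 5 bases of the annotated start. The first 5 are the genes with the smallest ratios.
Rps27l: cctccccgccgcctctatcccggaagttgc
Rpl7l1: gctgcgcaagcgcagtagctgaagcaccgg
Rps15: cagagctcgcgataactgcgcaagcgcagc
Rpl22l1: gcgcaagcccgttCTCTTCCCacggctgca
Rpl5: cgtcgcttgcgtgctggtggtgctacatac
The other 5 are the genes with the largest ratios.
Rpl35: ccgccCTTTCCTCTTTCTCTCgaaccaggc
Rps28: cgcgtgcggtctcgcgagagcgaaagtgag
Rpl36a: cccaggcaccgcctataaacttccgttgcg
Rpl38: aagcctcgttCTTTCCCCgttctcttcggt
Rps19: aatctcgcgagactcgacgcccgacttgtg

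These windows lie at chr9:66946076-66946105 (plus strand) for Rps27l, chr17:46782637-46782666 (minus strand) for Rpl7l1, chr10:80292421-80292450 (plus strand) for Rps15, chr3:28805498-28805527 (plus strand) for Rpl22l1 and chr5:107900518-107900547 (plus strand) for Rpl5. Those of the other 5 lie at chr2:39005112-39005141 (minus strand) for Rpl35, chr17:33824543-33824572 (minus strand) for Rps28, chrX:134585644-134585673 (plus strand) for Rpl36a, chr11:114668570-114668599 (plus strand) for Rpl38 and chr7:24884582-24884611 (plus strand) for Rps19. A tract in this sense stood at the annotated start of 25 of the 62 members with a promoter entry (40.3%), against 10.2% of all 27025 genes in the table. The annotated start can lie some bases away from the start used in a cell, so that a window without capitals says only that these letters are not at this place. The tract was present at both ends of the order, in Rpl22l1 among the smallest and in Rpl35 and Rpl38 among the largest ratios. Over the members with at least 50 CPM, the median log2 ratio of 14 days over naive in the lung was 0.78 in the 25 with a tract and 0.80 in the 35 without one.

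Ribosomal protein transcripts took a much larger share of the RNA of NK cells at 14 days than in naive mice, and the gap was wider in the lung than in the blood. In the lung they made up 12.9% of UMIs in the naive library, 14.6% at 6 h and 22.5% at 14 days. In the blood the shares were 13.7%, 15.0% and 18.5%. The share was thus slightly lower in lung than in blood in naive mice and at 6 h, and higher in lung at 14 days. Counting error was far smaller than these gaps, with an interval of 22.49 to 22.52% for the lung at 14 days.

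The shift involved the whole population of cells and not a few cells with extreme values. The median cell of the lung held 11.9% in the naive library, with the interquartile range of cells from 9.56 to 14.9%, and 20.4% at 14 days, with an interquartile range of 15.8 to 26.2%. The interquartile ranges of naive lung and of lung at 14 days did not overlap. Blood cells had a median that moved from 12.5% to 17.1%, and the interquartile ranges of 10.1 to 15.7% and 14.1 to 21.2% overlapped. At 6 h the median cells held 13.2% in the lung and 13.6% in the blood.

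**Figure D1:**
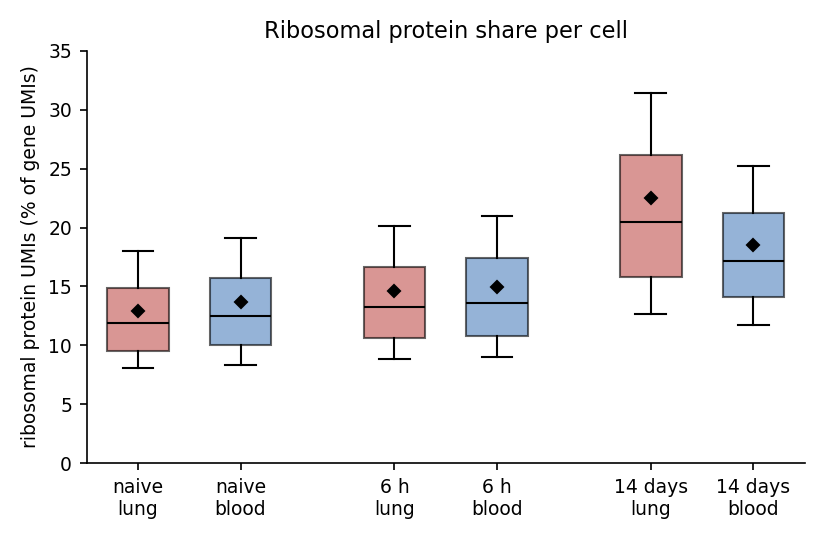
Share of gene UMIs from the 82 ribosomal protein genes in single cells of the 6 groups (y axis, percent). Boxes span the interquartile range of cells with the median as a line, whiskers reach the 10th and 90th percentile, and diamonds give the share of the summed counts; the lung at 14 days is highest, with a median cell at 20.4%.

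In molecules per cell, the naive lung held 825 ribosomal protein UMIs per cell on average and the lung at 14 days 1774, a 2.15-fold difference, while all other UMIs per cell differed 1.10-fold. The averages in the blood were 938 and 1517, a 1.62-fold difference beside 1.12-fold for all other UMIs. At 6 h over naive the corresponding folds were 1.36 beside 1.18 in the lung and 1.28 beside 1.15 in the blood. Other UMIs per cell were thus higher at 6 h as well. Counts per cell were not corrected for the sequencing depth of a library, which cannot be told apart from the time. The share was not independent of depth: within a group, Spearman's rho between a cell's UMIs and its share was 0.22 to 0.33 over cells of 1 library, which are not replicates. Among cells with 5000 to 8000 UMIs, the lung share was still 12.4% in naive mice and 19.96% at 14 days, and the blood share 12.8% and 16.9%. At 6 h the same cells held 13.0% in the lung and 13.1% in the blood.

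Both subunits moved together. Small subunit genes took 5.72, 6.49 and 9.99% of lung UMIs at naive, 6 h and 14 days, and 6.02, 6.65 and 8.21% of blood UMIs. The ratio of large to small subunit UMIs stayed between 1.25 and 1.27 in all 6 groups. For 14 days over naive in the lung, the median log2 ratio was 0.78 over 31 small subunit genes and 0.80 over 46 large subunit genes, leaving out the paralogs Rpl22l1, Rps27l and Rpl7l1.

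Gene by gene, nearly every member was higher at 14 days than in naive mice in the lung. A gene is counted as higher or lower here when its log2 ratio of CPM was at least 0.25 or at most -0.25, which describes size and is not a test. In the lung, 78 of 80 members were higher and 0 lower, against 10.8% of all 3939 genes higher and 50.4% lower. The median over members was 0.78, a 1.72-fold difference, with an interquartile range of 0.70 to 0.87, and the median over all genes was -0.25. In the blood, 74 of 80 members were higher and 0 lower, where 7.51% of all 3902 genes were higher and 43.6% lower. The blood median was 0.41, a 1.33-fold difference, against -0.20 for all genes. At the stricter size of 0.5, 75 members were higher in the lung, where 5.23% of all genes were, and 17 in the blood, where 1.08% were. Because CPM sums to a fixed total, a higher share of these genes lowers the values of all others: with totals that leave out the members and the mitochondrial genes, the medians were 0.96 in the lung and 0.50 in the blood.

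The order of times was the same for almost all members. In the lung, 78 of 80 members had their highest CPM at 14 days, an intermediate value at 6 h and the lowest in naive mice, and the same order held for 78 of 80 in the blood; these orders rest on 1 library per time. With the 6 h library as the reference instead of the naive one, the medians at 14 days were 0.60 in the lung and 0.26 in the blood. The lung ratio of 14 days over naive exceeded the blood ratio in 78 of 80 members, all but Rps27l and Rpl7l1. By arithmetic this equals a higher lung over blood ratio at 14 days than in naive mice. The counts in this paragraph were made over the members only. No share over all genes stands beside them, so they do not show a trait particular to the members.

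**Figure D2:**
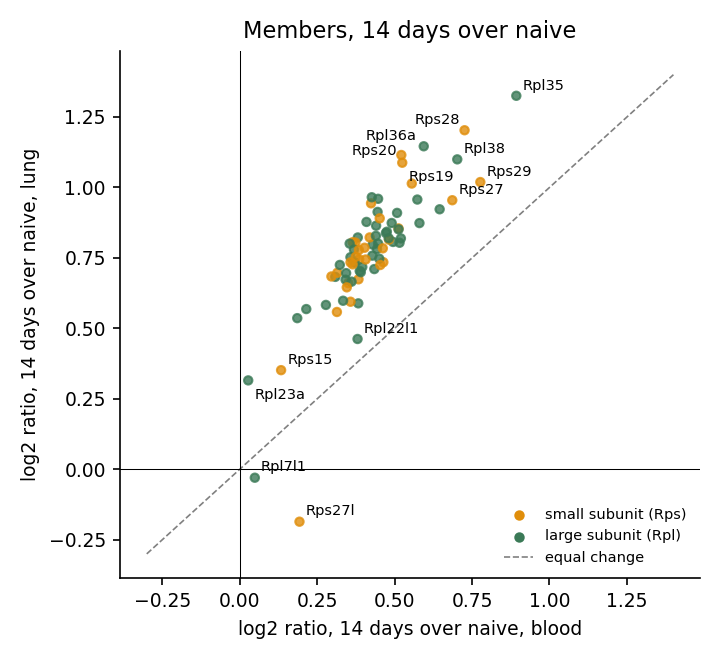
Log2 ratio of 14 days over naive in blood (x axis) and lung (y axis) for the 80 ribosomal protein genes with at least 50 CPM, coloured by subunit; the dashed line marks equal change. Rpl35 stands at the top right with 1.33 in lung and 0.89 in blood, and Rps27l and Rpl7l1 are the only genes below the line.

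Rpl35, a large subunit protein at the exit of the peptide tunnel, had the largest ratio in both tissues. Its lung values were 560, 645 and 1403 CPM at naive, 6 h and 14 days, and its blood values 608, 669 and 1129 CPM. The log2 ratio of 14 days over naive was 1.33 (95% interval 1.30 to 1.35) in the lung and 0.89 (0.86 to 0.92) in the blood. Both intervals lay far above the medians of the members.

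Next in the lung were Rps28, Rpl36a, Rps20 and Rpl38. Rps28, a small subunit protein near the exit of the mRNA channel, had 1406, 1585 and 3236 CPM in the lung and 1516, 1643 and 2507 CPM in the blood, with log2 ratios of 14 days over naive of 1.20 and 0.73. Rpl36a, a large subunit protein, had 586, 693 and 1298 CPM in the lung and 638, 725 and 964 CPM in the blood, with ratios of 1.15 and 0.59. In both genes the lung value at 14 days was the highest of the 6 groups and the naive lung value the lowest.

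Rps20, a protein of the head of the small subunit, had 1458, 1779 and 3159 CPM in the lung and 1542, 1798 and 2214 CPM in the blood. Its ratio of 14 days over naive was 1.12 in the lung and 0.52 in the blood, which gave it the widest gap between the tissues at 14 days. Rpl38, a large subunit protein known for its part in the translation of Hox mRNAs in the embryo, had 1726, 1926 and 3698 CPM in the lung and 1829, 2000 and 2975 CPM in the blood. Its ratios were 1.10 and 0.70.

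In the blood, Rps29, Rps28, Rpl38 and Rps27 followed Rpl35. Rps29, one of the smallest zinc-binding proteins of the small subunit, had 3077, 3472 and 5271 CPM in the blood and 3053, 3491 and 6188 CPM in the lung, with ratios of 0.78 and 1.02. In CPM of molecules counted from their 3′ ends, which need no correction for length, it had the highest level of all members in both tissues at 14 days, a rank held by Rps24 in naive mice and at 6 h. Rps27 had 2593, 2701 and 4172 CPM in the blood and 2576, 2694 and 4993 CPM in the lung, with ratios of 0.69 and 0.95. Its 6 h ratio was 0.06 in both tissues, so that its difference appeared almost wholly between the 6 h and 14 days libraries.

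At the other end, Rpl23a and Rps15 differed least among the genes that are not paralogs. Rpl23a, which lies at the tunnel exit and contacts the signal recognition particle, had 1257, 1304 and 1564 CPM in the lung and 1351, 1372 and 1377 CPM in the blood. Its ratio of 14 days over naive was 0.32 (0.29 to 0.34) in the lung and 0.03 (0.00 to 0.05) in the blood, so that its blood level hardly moved. Rps15, a small subunit protein close to the decoding site, had 1385, 1496 and 1768 CPM in the lung and 1441, 1544 and 1581 CPM in the blood, with ratios of 0.35 and 0.13. The 6 members that did not reach 0.25 in the blood were Rpl5, Rpl4, Rps27l, Rps15, Rpl23a and Rpl7l1.

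The stalk proteins, the flexible arm of the large subunit that recruits translation factors, did not stand together in the order. Rplp0, the base of the stalk, had 1377, 1595 and 2506 CPM in the lung and 1478, 1633 and 2006 CPM in the blood, with ratios of 14 days over naive of 0.86 and 0.44. Rplp1 had 2932, 3392 and 4847 CPM in the lung and 3084, 3450 and 3858 CPM in the blood, with ratios of 0.73 and 0.32. Rplp2 had ratios of 0.67 and 0.34. All 3 passed 0.25 in both tissues. In the lung Rplp0 stood near the upper quartile of the members (0.87) and Rplp2 below the lower one (0.70), and in the blood both Rplp1 and Rplp2 were below the lower quartile of 0.36.

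Rpl5 and Rpl11, which carry the 5S rRNA into the large subunit and can bind Mdm2 when assembly fails, did not move alike. Rpl5 had 1271, 1333 and 1844 CPM in the lung and 1369, 1375 and 1557 CPM in the blood, and Rpl11 had 1506, 1761 and 2528 CPM in the lung and 1609, 1826 and 2199 CPM in the blood. The lung ratio of 14 days over naive was 0.54 (0.52 to 0.56) for Rpl5 and 0.75 (0.73 to 0.77) for Rpl11. In the blood it was 0.19 (0.16 to 0.21) and 0.45 (0.43 to 0.47). Rpl5 was among the lowest of all members in the blood, whereas Rpl11 lay above the median there.

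Rps6 and Rps19, known from signaling and from disease, differed in their place in the order. Rps6, the small subunit protein phosphorylated by the S6 kinases, had 970, 1125 and 1626 CPM in the lung and 1036, 1164 and 1354 CPM in the blood, with ratios of 14 days over naive of 0.75 and 0.39. Rps19, the gene most often mutated in Diamond-Blackfan anemia, had 1085, 1412 and 2306 CPM in the lung and 1168, 1452 and 1681 CPM in the blood. Its ratios were 1.09 and 0.52, while those of Rps6 lay close to the medians of the members. Rps19 also had the largest ratio of all members at 6 h.

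Rps3, at the entry of the mRNA channel, had ratios of 14 days over naive of 0.70 in the lung and 0.32 in the blood. Rpsa, also known as the laminin receptor, had 0.82 and 0.42. Rpl10, which joins the large subunit last, had 0.60 and 0.33, and Rpl13a, which can leave the ribosome to repress translation of inflammatory mRNAs, had 0.67 and 0.36. Rps27a, made as a fusion with ubiquitin, had 0.75 and 0.37, and Rpl41, the shortest of all members, had 0.80 and 0.52. Each of these genes was past 0.25 in both tissues, and each had a larger ratio in the lung.

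The paralogs with at least 50 CPM had lower ratios of 14 days over naive than the genes they resemble, apart from Rpl22l1 in the blood. Rps27l, a close copy of Rps27 known as a p53 target, had 185, 215 and 162 CPM in the lung and 188, 232 and 215 CPM in the blood. Its ratio of 14 days over naive was -0.19 (-0.25 to -0.13) in the lung and 0.19 (0.13 to 0.25) in the blood, against 0.95 and 0.69 for Rps27. It was the member with the lowest lung ratio, and the sign of its ratio differed between the tissues.

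Rpl7l1, a relative of Rpl7 known from ribosome assembly, was low everywhere, with 51.3, 51.3 and 50.3 CPM in the lung and 62.0, 68.7 and 64.2 CPM in the blood. Its ratio of 14 days over naive was -0.03 (-0.14 to 0.08) in the lung and 0.05 (-0.06 to 0.16) in the blood, and both intervals include 0. Rpl7 itself had 0.58 and 0.28. Rpl22l1, which can take the place of Rpl22, had 441, 485 and 608 CPM in the lung and 444, 493 and 578 CPM in the blood. Its ratios of 0.46 (0.43 to 0.50) and 0.38 (0.34 to 0.42) were nearly equal in the tissues, whereas Rpl22 had 0.82 and 0.38.

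The tissue-restricted paralogs were almost absent. Rpl39l had 17, 34 and 9 UMIs in the lung and 16, 27 and 14 UMIs in the blood, while Rpl39 had 2157 to 3953 CPM. Rpl3l, a muscle gene, had 3, 2 and 0 UMIs in the lung and 0, 1 and 0 in the blood, at or under a floor of 3 counts, while Rpl3 had 1005 to 1962 CPM. Rpl10l had 0 counts in all 6 groups and is the 1 named gene that dropped out. Ribosomal protein genes have many processed pseudogenes and near-identical copies, and reads that match several places may be lost or assigned to 1 of them, so that the level of a member such as Rps27, beside its copy Rps27rt, is less certain than its interval shows.

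Within each library, where lung and blood were handled as 1 reaction, the members passed from slightly lower in lung to higher in lung. In naive mice the median log2 ratio of lung over blood was -0.08, close to the median of all genes of -0.07, with 0 members higher and 1, Rpl7l1, lower past 0.25, where 15.4% and 17.6% of all 4067 genes were. At 6 h the median was -0.04, against -0.07 over all genes, again with 0 members higher and Rpl7l1 lower, where 13.8% and 16.4% of all genes were. Set against that median of all genes, the 6 h value was 0.03, so that its sign depends on the reference. At 14 days the median was 0.27 against -0.10 over all genes, with 54 members higher and 2 lower, where 14.1% and 21.9% of all 3711 genes were. At the stricter size of 0.5 only Rps20 was higher, where 7.49% of all genes were.

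The pattern of a lower lung value in naive mice and at 6 h and a higher one at 14 days was shared by 77 of the 80 members. Among 3505 other genes with at least 50 CPM in all 3 comparisons, 338 showed it (9.64%). The exceptions were Rps29, whose ratio at 6 h was 0.01 (-0.01 to 0.02), and Rps27l and Rpl7l1, which were lower in lung in every library. Rps27l had lung over blood ratios of -0.02, -0.11 and -0.40, and Rpl7l1 had -0.27, -0.42 and -0.35. The difference between the libraries was not tested.

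**Figure D3:**
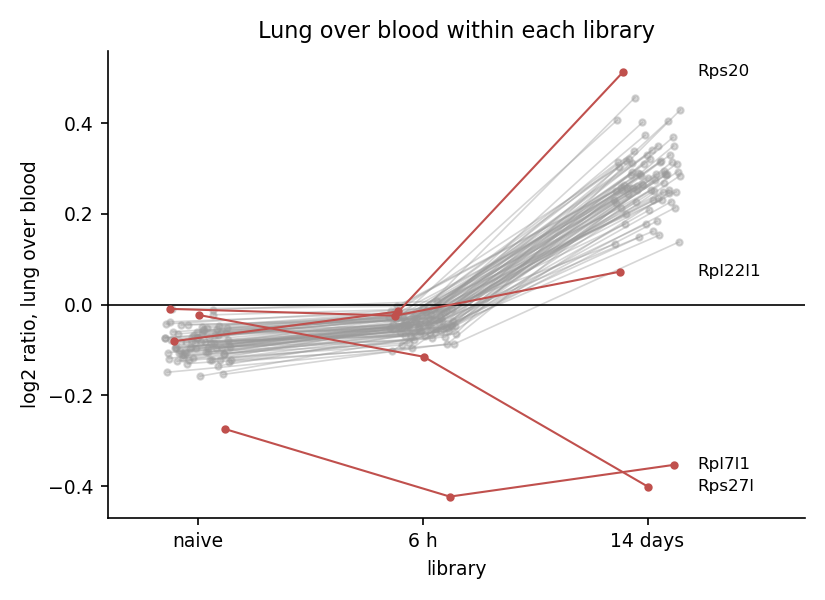
Log2 ratio of lung over blood within the naive, 6 h and 14 days libraries (x axis) for the 80 ribosomal protein genes with at least 50 CPM, 1 line per gene; named genes are in red and points are spread sideways for legibility. The members lie close below 0 in the first 2 libraries and between 0.07 and 0.51 at 14 days, apart from Rps27l and Rpl7l1.

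By the mean of the 3 libraries, Rps20, Rps19, Rps12, Rpl12 and Rps2 were the members most tilted to the lung, and in all 5 the ratio was above 0 in the 14 days library alone. Their lung over blood ratios there were 0.51 for Rps20, 0.46 for Rps19, 0.34 for Rps12, 0.41 for Rpl12 and 0.33 for Rps2, while each was below 0 in naive mice and at 6 h. The members least tilted to the lung, after Rpl7l1 and Rps27l, were Rpl10, Rpl27 and Rpl7a, with 14 days ratios of 0.14, 0.15 and 0.23. The enzymatic digestion of the lung was common to all libraries: the summed CPM of 11 genes known to respond to dissociation was 2284 to 2386 in the 3 lung groups and 877 to 922 in the 3 blood groups. Single genes of this list did move: in the lung at naive, 6 h and 14 days Jun had 106, 109 and 217 CPM, Hspa1b 3.20, 4.06 and 41.9 CPM, and Dusp1 196, 217 and 147 CPM. Their part in the lung values at 14 days was not tested.

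At 6 h over naive, the ratios of the members were small, above 0 in 79 of 80 in the lung and in all 80 in the blood, and few reached the size counted as higher. They ran from -0.0015 to 0.38 in the lung and from 0.0070 to 0.31 in the blood. The median log2 ratio was 0.19 in the lung and 0.14 in the blood, against -0.09 and -0.07 over all genes. The share of all genes above 0 was not counted. Interquartile ranges of the other genes were -0.19 to 0.04 in the lung and -0.17 to 0.05 in the blood. Only 6 members passed 0.25 in the lung and 4 in the blood, and 0 were lower, where 4.4% of 3889 genes in the lung and 3.79% of 3910 genes in the blood were higher and 10.8% and 8.24% lower. At a size of 0.5, 0 members were higher in either tissue, where 0.386% of genes in the lung and 0.23% in the blood were. In cells with 5000 to 8000 UMIs the medians were 0.07 in the lung and 0.04 in the blood, a smaller difference than over all cells; the number of UMIs per cell was itself higher at 6 h than in naive mice.

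The members past 0.25 in the lung at 6 h included Rps19, Rps2, Rps20, Rpl7a and Rpl12. Rps19 had 0.38 (0.36 to 0.40) in the lung and 0.31 (0.29 to 0.34) in the blood. Rps2, a small subunit protein at the mRNA entry, had 1183, 1493 and 2029 CPM in the lung and 1236, 1506 and 1614 CPM in the blood, with 6 h ratios of 0.34 and 0.28. The members past 0.25 in the blood included Rps19, Rps2 and Rps27l, the last with 0.31. The smallest lung ratios at 6 h belonged to Rpl7l1, Rpl23a, Rps27, Rpl5 and Rpl39, between -0.0015 and 0.08.

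NK cells mature from Cd27-positive Itgam-negative cells (Itgam encodes CD11b) over double-positive cells to Cd27-negative Itgam-positive cells, and cells were placed in 4 classes by at least 1 UMI of either gene. A cell without a UMI may still express the gene, so that these classes follow detection and depth as well as maturation. The Cd27+Itgam- class had the highest share of ribosomal protein UMIs of the 4 classes in every group and the Cd27-Itgam+ class the lowest. In the lung, Cd27+Itgam- cells held 15.2, 18.2 and 28.0% at naive, 6 h and 14 days, and Cd27-Itgam+ cells 12.2, 13.4 and 19.4%. The blood values were 16.9, 19.4 and 21.8% for Cd27+Itgam- cells and 12.7, 13.3 and 17.4% for Cd27-Itgam+ cells. Cd27+Itgam- cells were also deeper, with a median of 9101 UMIs against 6743 in Cd27-Itgam+ cells in the lung at 14 days.

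Class sizes differed between the groups, and the median over members was above 0 at 14 days over naive within each class. These classes do not separate all cell states, and the part of cell composition in the difference was not tested. In the lung, Cd27+Itgam- cells made up 6.53% of naive cells and 13.5% at 14 days, and Cd27-Itgam+ cells 61.6% and 47.0%. Within classes the median log2 ratio of 14 days over naive in the lung was 0.87 in Cd27+Itgam- cells, 0.64 in Cd27+Itgam+ cells, 0.64 in Cd27-Itgam+ cells and 0.85 in Cd27-Itgam- cells. Blood class medians were 0.34, 0.43, 0.43 and 0.41 in the same order. With equal weight to the 4 classes the medians were 0.76 in the lung and 0.39 in the blood.

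The gap between the tissues at 14 days was less even over the classes. The median of lung over blood at 14 days was 0.37 in Cd27+Itgam- cells, with 69 of 80 members past 0.25, where 17.4% of all 3736 genes were. It was 0.31 in Cd27-Itgam- cells, with 66 members past 0.25 against 16.2% of all genes. In Cd27+Itgam+ cells it was 0.19, with 9 members past 0.25 against 18% of all genes, and in Cd27-Itgam+ cells 0.15, with 3 against 12.8%, so that in these last 2 classes the members' share was below that of all genes. In naive mice the class medians were between -0.17 and -0.02. At 6 h they were between -0.09 and 0.01, and the value above 0 was that of Cd27-Itgam+ cells.

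**Figure D4:**
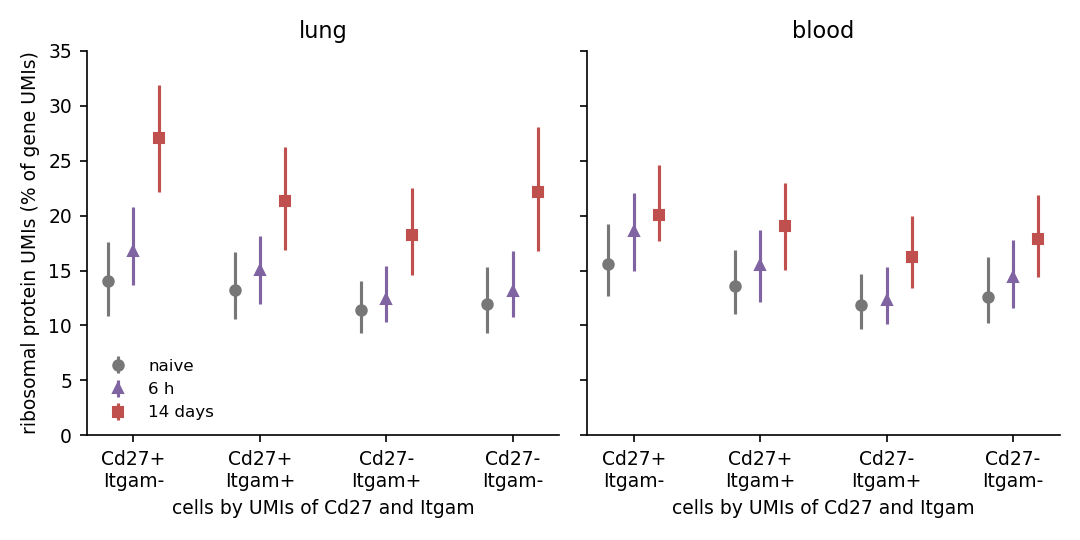
Share of ribosomal protein UMIs per cell (y axis, percent of gene UMIs) in 4 classes of cells by detection of Cd27 and Itgam (x axis), in lung (left) and blood (right); points are medians over cells and bars span the interquartile range. At 14 days the median Cd27+Itgam- cell of the lung held 27.0% and the median Cd27-Itgam+ cell 18.2%.

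A further class, cells with a UMI of both Itga1 (the CD49a integrin chain) and Pmepa1, a gene known to respond to TGF-beta, counted 605 lung cells at 14 days and 24 in naive lung. These 605 cells held 25.8% ribosomal protein UMIs and the other lung cells of the library 21.7%, so that the higher level was not limited to them. The 605 cells were also deeper, with a median of 7814 UMIs against 6849 in the others. The part of depth in this gap was not tested. The few cells with cycling markers, 14 to 35 per group, held 18.01, 16.8 and 23.4% in the lung at naive, 6 h and 14 days. In the blood they held 17.7, 15.1 and 20.3%, so that the 6 h value was the lowest in both tissues.

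In the ratio of 14 days over naive, the order among members went with their length. Over the 77 genes that are not paralogs, Spearman's rho between coding length and this ratio was -0.34 in the lung and -0.47 in the blood, a description over genes of the same libraries. For 6 h over naive rho was 0.19 in the lung and 0.08 in the blood, and for lung over blood at 14 days it was -0.008. The values that follow are of 14 days over naive. In the blood the median ratio was 0.51 in the 25 genes with the shortest coding sequence (up to 399 bases), 0.43 in the middle group and 0.38 in the 25 with the longest (from 582 bases). In the lung these medians were 0.85, 0.76 and 0.73. Long members were not always low, since Rpl3, a core protein of the peptidyl transferase centre with 1209 coding bases, had 0.97 in the lung and Rpl4, with 1257, had 0.57.

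**Figure D5:**
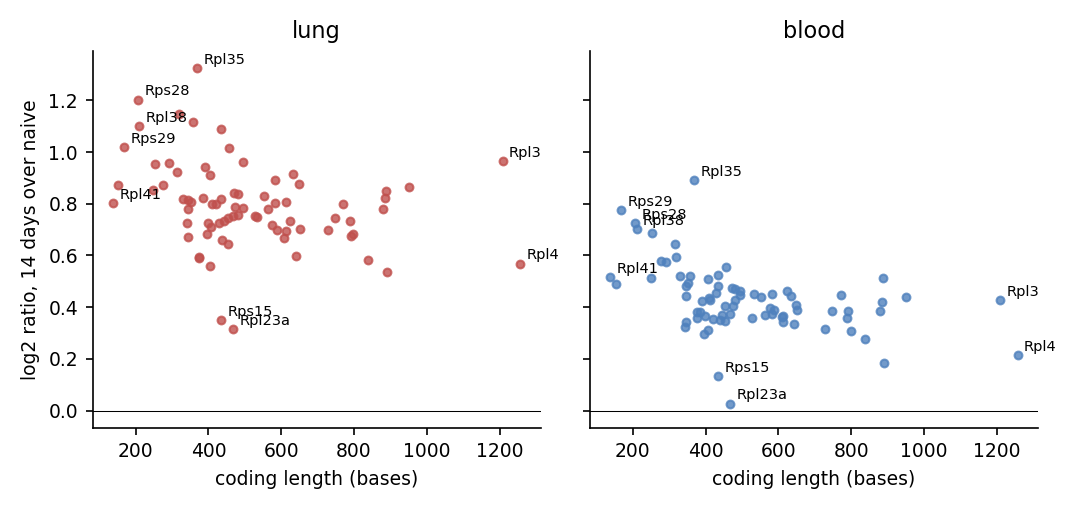
Log2 ratio of 14 days over naive (y axis) against coding length in bases (x axis) for the 77 ribosomal protein genes that are not paralogs, in lung (left) and blood (right). Short genes such as Rps28, Rps29 and Rpl38 lie high in both tissues, and Rpl23a and Rps15 lie lowest.

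Length along the genome also went with the ratio in all other genes. The members are short genes, with a median span of 3328.5 bases. Among other genes with at least 50 CPM, the 771 with the shortest span (up to 10700 bases) had a median ratio of 14 days over naive in the lung of 0.05 and the 771 with the longest span -0.43. In the blood the medians of the shortest and longest groups were 0.13 and -0.43. The 76 members of the same short span had medians of 0.78 in the lung and 0.41 in the blood, and 78 of the 80 members lay above the median of the short genes in each tissue. At 6 h over naive the other short genes had medians of 0.10 in both tissues, closer to the 0.18 and 0.14 of the short members. Other highly expressed genes, with at least 500 CPM, had medians of 14 days over naive of -0.26 in the lung and -0.04 in the blood.

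Among genes of the same particle that the name rule left out, 5 were tested. At 14 days over naive 5 were higher in the lung and 4 in the blood, where 10.8% and 7.51% of all genes were. The medians over the 5 genes were 0.71 and 0.48. Fau, which encodes the small subunit protein eS30 fused to a ubiquitin-like domain, had 3004, 3185 and 4907 CPM in the lung and 3102, 3232 and 4314 CPM in the blood, with ratios of 14 days over naive of 0.71 and 0.48. Rack1, a scaffold on the head of the small subunit, had ratios of 0.59 and 0.25. Rpl36al, a copy of Rpl36a, had 0.38 and 0.33, against medians of 0.78 and 0.41 over the members. Its ratio of lung over blood at 14 days was -0.10 (-0.13 to -0.06), the same as the median over all genes of -0.10. The members had a median of 0.27 there.

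Translation factors did not move as 1 group. Of 6 elongation factor genes tested in the lung, 6 were higher at 14 days than in naive mice, where 10.8% of all genes were. The median of the 6 was 0.55. In the blood 2 of 7 were higher, with a median of 0.23 over the 7, where 7.51% of all genes were higher. Eef1a1, which brings aminoacyl-tRNA to the ribosome, had 3010, 3154 and 4497 CPM in the lung and 3134, 3225 and 3705 CPM in the blood. The 31 initiation factor genes had medians of 0.04 in the lung and 0.08 in the blood, against -0.25 and -0.20 over all genes. In the lung 8 were higher and 5 lower, where 10.8% and 50.4% of all genes were.

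Other genes known for TOP mRNAs, which overlap with the lists above, had medians of 0.48 in the lung and 0.23 in the blood. The medians over all genes were -0.25 and -0.20. In the lung 16 of 20 were higher and 1 lower, where 10.8% and 50.4% of all genes were. In the blood 6 were higher, where 7.51% of all genes were. Among these 20 genes, Tpt1 had 4879, 5200 and 6891 CPM in the lung and 4912, 5140 and 5766 CPM in the blood. The 1 gene that was lower in the lung was Vim, the intermediate filament vimentin, with -0.77.

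Genes for making ribosomes had lower median ratios at 14 days than at 6 h, and so did all genes. Of 42 ribosome biogenesis genes, 14 to 17 reached 50 CPM in a comparison. At 6 h over naive their median was 0.22 in the lung, with 6 of 16 higher, and 0.25 in the blood, with 9 of 17 higher. Over all genes the 6 h medians were -0.09 and -0.07, with 4.4% and 3.79% higher. At 14 days over naive the medians of the list were 0.06 and 0.09, against -0.25 and -0.20 over all genes. In the lung 5 of 15 were higher at 14 days, where 10.8% of all genes were. The largest ratio there was that of Npm1, a nucleolar chaperone, with 443, 523 and 603 CPM at naive, 6 h and 14 days.

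The 11 mTOR and Myc pathway genes tested had medians of 14 days over naive of -0.27 in the lung and -0.13 in the blood. These lay near the medians over all genes, which were -0.25 and -0.20. In the lung 0 of the 11 were higher and 6 lower, where 10.8% and 50.4% of all genes were. Myc, a transcription factor that drives ribosome production, stayed under 50 CPM and was outside that count, with 16.9, 22.9 and 41.2 CPM in the lung and 24.4, 27.0 and 24.6 CPM in the blood. Its ratio of 14 days over naive was 1.28 (1.12 to 1.45) in the lung and 0.01 (-0.17 to 0.18) in the blood. Of the Rpl5 and Rpl11 partners, Mdm2 had 88.2, 74.0 and 62.7 CPM in the lung. Ribosome quality control genes had medians of -0.30 in the lung and -0.33 in the blood, against -0.25 and -0.20 over all genes. In these small sets 4 of 5 and 4 of 6 genes were lower, where 50.4% and 43.6% of all genes were.

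Mitochondrial ribosomal proteins, which serve the separate ribosome of the mitochondrion, had smaller median ratios than the cytosolic ones at 14 days. At 6 h their median was slightly smaller in the lung and slightly larger in the blood. Their median ratio of 14 days over naive was 0.11 over 30 genes in the lung and 0.17 over 32 genes in the blood. Nuclear genes of oxidative phosphorylation had 0.14 and 0.25. At 6 h over naive the medians were 0.16 in both tissues for the mitochondrial ribosomal proteins and 0.19 in both for oxidative phosphorylation, beside 0.19 in the lung and 0.14 in the blood for the cytosolic members. At 14 days both lists were lower in lung than in blood, with medians of -0.21 and -0.16. The median over all genes was -0.10 there and that of the cytosolic members 0.27. Both lists were also lower in the lung in naive mice (-0.16 and -0.09) and at 6 h (-0.16 and -0.09). The 37 mitochondrially encoded genes summed to 29206 to 33260 CPM in the 6 groups.

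Markers of other cell types were low beside these levels. The summed CPM of 5 T cell genes was 187 to 294 (0 of 5 at 0), that of 5 B cell genes 35.6 to 56.2, that of 5 epithelial genes 0.45 to 1.99, that of 6 myeloid genes 87.1 to 189 and that of 4 endothelial genes 49.6 to 84.9, most of it Pecam1. Cdh5 and Cldn5 had counts in the lung at 14 days alone, at 1.17 and 1.14 CPM. In the blood at 14 days Lyz2, a myeloid gene, had 89.3 CPM against 0.60 in naive blood. Its log2 ratio of 14 days over 6 h in the blood was 0.99, so that it was already above its naive level at 6 h. In the lung at 14 days 3 erythroid genes summed to 69.2 CPM, against 1.48 to 2.54 in the other groups. Without the 30 lung cells with an erythroid UMI at 14 days, and such cells of the other groups, the medians of 14 days over naive were 0.78 in the lung and 0.42 in the blood. The part of the other markers in the results was not tested. Free RNA, from barcodes with at most 100 counts, held 16.2, 16.6 and 18.8% ribosomal protein UMIs in the naive, 6 h and 14 days libraries. These shares lay above those of both groups of cells in the naive and 6 h libraries, and between blood and lung at 14 days.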

How the data were processed

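Single-cell RNA libraries (10x 3′ chemistry) of sorted mouse NK cells were analysed, 1 per time point. The values deposited by the authors are raw UMI counts per gene and barcode, with 2 hashtags. Per the study's methods they came from Cell Ranger 7.0.1 with GRCm38.p6 (GENCODE M23), while the matrix headers name 7.1.0; the authors' later steps used Seurat 5.0. Barcodes with 800 to 5000 genes and at most 6% mitochondrial counts were kept, as in the study, and assigned to lung (B0304) or blood (B0306) by at least 90% of hashtag counts, a pairing read from the order of naming in the methods; this left 342, 158 and 141 barcodes unassigned. No doublet caller was run; barcodes with both hashtags drop out here, doublets within a tissue do not.

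Counts were summed per library and tissue, with depths of 16936897 to 35922737, and divided by the total (CPM). With 1 sample per group no test was run. Log2 ratios have exact 95% intervals for counting error; ratios were taken for genes that reached 50 CPM in either group. The interval code was tested on simulated data. Positions and coding lengths are from GENCODE M21 (GRCm38) and start windows from RefSeq (GRCm38.p6), in which 62 of 82 members matched. Python 3.11.15, numpy 2.4.6, scipy 1.17.1 and pandas 2.3.3 were used.

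The members and gene lists were chosen with earlier results of these data known. Genes were named by rule: the 5 members with the largest and smallest ratio in lung over blood (mean of 3 libraries), in 14 days over naive in each tissue and in 6 h over naive in lung, plus members with a set role and paralog pairs; genes named beyond these were chosen after their values were seen, and a few genes under the rule are not reported here. Alternatives changed totals, reference, hashtag and cell filters, depth, free RNA, class weights and the minimum of CPM.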

Additional observations from a re-analysis of the deposited data

Results flagged for a closer look

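The direction of the lung over blood comparison differed between the libraries. The median log2 ratio over 80 ribosomal protein genes was -0.08 in naive mice and -0.04 at 6 h, and 0.27 at 14 days, and 77 of the 80 genes were below 0 in the first 2 libraries and above 0 in the last. With 1 library per time point, this difference was not tested.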

How the results depend on the processing

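No paired analysis was possible because each group was 1 sample and the result comes from no test. The median log2 ratios below are in the order lung over blood in naive, 6 h and 14 days, 14 days over naive in lung and blood, and 6 h over naive in lung and blood. Over the alternatives they ranged from -0.10 to -0.01, -0.05 to 0.03, 0.23 to 0.36, 0.60 to 1.04, 0.26 to 0.61, 0.07 to 0.28 and 0.04 to 0.21, so that all but the second kept their direction. In cells with 5000 to 8000 UMIs they were -0.044, -0.012, 0.234, 0.659, 0.376, 0.070 and 0.040. Set against the median over all genes they were -0.015, 0.027, 0.363, 1.04, 0.615, 0.278 and 0.214, and the 6 h value of lung over blood changed sign because the median of all genes was lower still. With totals that leave out mitochondrial genes and members, the last 5 were 0.343, 0.957, 0.502, 0.220 and 0.167. Equal class weights gave 0.761 and 0.386 for 14 days over naive in lung and blood, and subtracting 5% free RNA gave 0.817 in the lung. With the 6 h library as reference, chosen after seeing the data, the 14 days values were 0.603 and 0.262. Other hashtag, gene and mitochondrial limits, leaving out the deepest cells, no minimum of CPM and, chosen after seeing the data, leaving out cells with an erythroid UMI moved the medians by less than the counting error of a typical member. At a size of 0.5 in place of 0.25, the members counted as higher went from 54 to 1 for lung over blood at 14 days, from 74 to 17 for 14 days over naive in blood, from 78 to 75 in lung, and from 6 and 4 to 0 at 6 h. Depth limited only the rare paralogs Rpl39l, Rpl3l and Rpl10l.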

Other observations

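Barcodes without a clear hashtag, which belong to no group, held 12.5% ribosomal protein UMIs in the naive library (342 barcodes), 14.2% at 6 h (158) and 19.7% at 14 days (141). Their median UMIs per barcode were 11721.5, 14811 and 15177, above those of every group. The hexamer CTTCCG, searched on both strands, was found in the 300-base promoter windows of 67.7% of the 62 members with an entry, against 17.2% of all genes in the table and 36.9% of other genes with at least 50 CPM. The E box CACGTG was found in 8.06% of the members' windows, 7.24% of all windows and 10.2% of those of other genes with at least 50 CPM.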
